A study of Mus musculus with 15 samples.

Results

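The proteasome genes were examined in the kidneys of 15 mice, and their members were the protein-coding genes of GENCODE release 21 for mouse whose symbol starts with Psm, a letter from a to g and a number. The rule found 50 genes, against 13933 genes with a summed value in the whole series. Of these, 48 had transcripts in the deposited files and all 48 passed the filter on low values. The remaining members, Psma8, the alpha subunit of the testis, and Psmb11, the beta subunit of the thymus, were not listed. By role, the 48 were 7 alpha ring and 7 beta ring subunits of the 20S core, 3 immunoproteasome subunits, 17 subunits of the 19S regulator, 5 genes of other activators, the inhibitor Psmf1, 7 assembly chaperones, and Psmc3ip, which matched the rule by its symbol but encodes a factor of meiotic recombination.

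The study asked how kidney transcripts change in hypertension caused by angiotensin II, the pressor peptide of the renin-angiotensin system, and under Qingda granule (QDG), a mixture of Chinese herbs. All mice were male wild-type C57BL/6, bought at 8 weeks of age, with 5 per group. Control mice received saline, AngII mice received 500 ng/kg/min of angiotensin II from an implanted osmotic pump, and AngII+QDG mice received the same infusion with 1.145 g/kg/day of QDG by gavage, all for 28 days. Control and AngII mice were gavaged with double-distilled water, and no group received QDG without angiotensin II. Values are FPKM, fragments divided by transcript length and by library size, so levels of different genes can be set side by side, and a gene's value is the sum over its annotated transcripts. Each sample was taken as 1 mouse, named by its accession order within the group, and p-values measure the spread between these samples.

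The proteasome is the protease that degrades proteins tagged with ubiquitin. Its 20S core is a barrel of alpha rings, which gate the entrance, and beta rings, which hold the catalytic sites of Psmb5, Psmb6 and Psmb7, and the 19S regulator on its end binds, unfolds and feeds in the substrate. In immune cells and under interferon gamma, Psmb8, Psmb9 and Psmb10 take the place of Psmb5, Psmb6 and Psmb7 to form the immunoproteasome, which shapes peptides for antigen presentation. Proteasome genes are expressed in every cell type and can rise together when proteasome activity is limiting.

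The implied library totals were 75034560 to 81329520 reads or fragments per mouse in Control, 70697520 to 79291740 in AngII and 68922660 to 76143540 in AngII+QDG. AngII+QDG mice 1, 3, 4 and 5, at 70139140 or less, lay below all mice of the other groups. The part of this depth in the proteasome values was not tested. Proximal tubule markers were high in each group, with a sum over Slc34a1, Lrp2, Slc5a2 and Slc22a6 of 2753 ± 55.6 FPKM in Control, 3290 ± 536 FPKM in AngII and 2939 ± 287 FPKM in AngII+QDG (SD, n = 5), and the markers of testis and skeletal muscle were not listed. Transcripts of the mitochondrial genome took 21.8% ± 0.804 of the annotated FPKM in Control, 17.7% ± 0.268 in AngII and 20.4% ± 1.54 in AngII+QDG. The sum of the 2 erythroid markers Hba-a1 and Hbb-bs was 589 ± 220 FPKM in Control, 850 ± 232 FPKM in AngII and 1221 ± 362 FPKM in AngII+QDG. The podocyte marker Podxl rose in AngII, as did 1 of 4 fibroblast markers, Pdgfrb (adjusted p = 0.0277 and 0.0468). The sum of the thick ascending limb markers Slc12a1 and Umod was 1139 ± 153 FPKM in Control, 1016 ± 231 FPKM in AngII and 1349 ± 176 FPKM in AngII+QDG. AngII mice 2 and 5 stood apart from the other AngII mice, with Slc34a1 at 3065 and 2941 FPKM against 2113 to 2212 FPKM, Slc12a3 of the distal convoluted tubule at 142 and 130 FPKM against 51.2 to 84.0 FPKM, Slc12a1 at 18.0 and 42.1 FPKM against 94.6 to 163 FPKM and Aqp2 of the collecting duct at 73.3 and 63.7 FPKM against 138 to 255 FPKM. The calls of Psme3 and Psmd2 in AngII+QDG against AngII were lost when either of these mice was left out, and that of Psmb5 was not. Psmd2 also lost its call without AngII+QDG mouse 2, 3, 4 or 5, and Psme3 without AngII+QDG mouse 2 or 3. Without AngII mouse 2 or 5, the log2 fold change of Psmd2 was -0.20 or -0.21, against -0.21 with all mice. That of Psme3 was -0.24 or -0.23, against -0.24. In these fits 0.375% and 0.456% of all genes were called lower, against 1.29% with all mice. These shifts in composition accompany the comparisons, and their part in the proteasome values was not tested, except that the mitochondrial share was taken out in 1 alternative scaling. In these bulk kidney samples, fewer cells of a type and less RNA per cell cannot be told apart.

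Summed over the 48 genes, the level was 2235 ± 80.0 FPKM in Control, 2320 ± 62.9 FPKM in AngII and 2087 ± 86.0 FPKM in AngII+QDG (SD, n = 5). Relative to all annotated FPKM outside the mitochondrial genome, this was 0.583% ± 0.0194, 0.598% ± 0.0149 and 0.540% ± 0.0158. In AngII+QDG the summed level was 2028, 2041, 2044, 2088 and 2236 FPKM in the 5 mice, and 4 of the 5 lay below all Control and all AngII mice, which ranged from 2143 to 2321 FPKM and from 2249 to 2418 FPKM. The exception was AngII+QDG mouse 1. The levels of the 2 rings, the base ATPases and the lid overlapped, and the assembly chaperones and immunoproteasome subunits lay below them. Averaged across all mice, the 7 beta ring subunits lay between 51.5 and 141 FPKM, 5 of them over 100 FPKM, the 7 alpha ring subunits between 27.1 and 109 FPKM, the 6 base ATPases between 43.9 and 79.9 FPKM, the 8 lid subunits between 21.4 and 72.4 FPKM, the 7 assembly chaperones between 3.60 and 16.8 FPKM, and the 3 immunoproteasome subunits between 1.84 and 5.60 FPKM. Psmb5 had the highest mean of the 48 in each group.

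**Figure D1:**
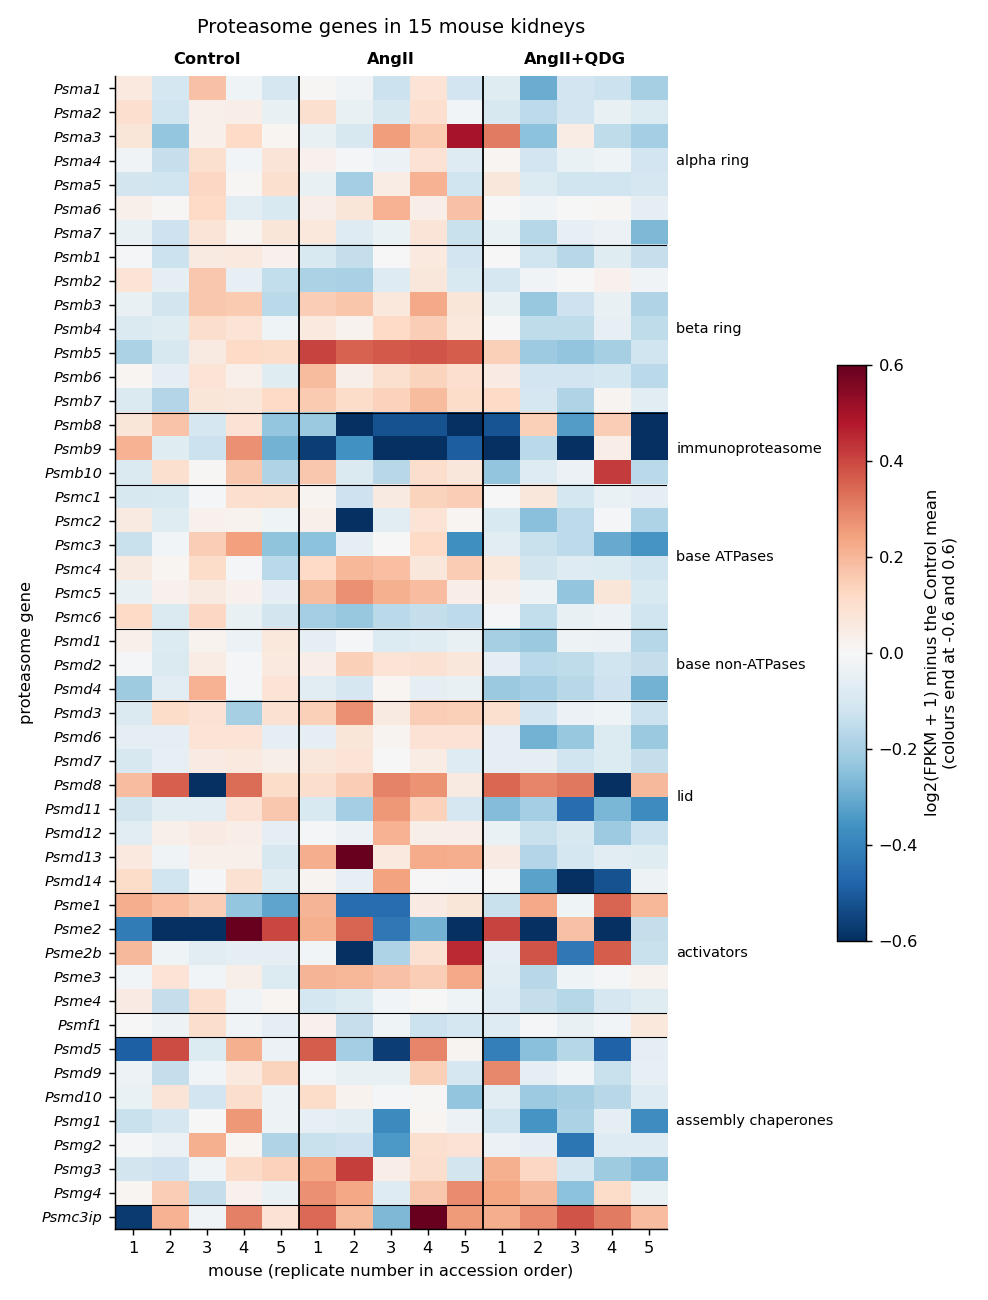
Heat map of 48 proteasome genes (rows, grouped by role) in 15 kidneys (columns), with colour for log2(FPKM + 1) minus the Control mean, ending at -0.6 and 0.6. Psmb5 was red in all 5 AngII mice, most 20S and 19S genes were blue in AngII+QDG mice 2 to 5, and isolated dark cells mark the single low values of Psmc2 and Psmd8.

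In AngII compared with Control, 2 of the 48 proteasome genes rose, Psmb5 and Psme3, and 0 fell at an adjusted p under 0.05 in the limma model. This was 4.17% of the members, beside 4.95% of the 12366 genes tested that rose, and 0.995% that fell. The median log2 fold change was 0.00 over the members and 0.08 over all genes tested, and 24 of 48 members (50%) lay above 0, beside 64.8% of all genes. The sign of this near-zero median depended on the scaling, because it was -0.08 after quantile normalization and -0.09 after median scaling. At an unadjusted p under 0.05, 7 members were higher and 3 lower (14.6% and 6.25% of the members, beside 17.9% and 4.83% of all genes). All AngII mice lay above all Control mice in 3 members, Psmb5, Psmd13 and Psme3 (6.25%, beside 6.49% of all genes), and below them in 2, Psmb9 and Psmc6 (4.17%, beside 1.42%). No member passed the threshold used by the study, a fold change of at least 2 at an unadjusted p under 0.05, which 1.04% of all genes passed.

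In AngII+QDG compared with AngII, 3 members fell, Psmb5, Psmd2 and Psme3, and 0 rose. The 3 made up 6.25% of the members, beside 1.29% of all genes that fell and 0.526% that rose. Below 0 lay 39 of 48 members (81.2%), beside 53.7% of all genes, and the median log2 fold change was -0.12 over the members and -0.02 over all genes. At an unadjusted p under 0.05, 18 members were lower (37.5%, beside 10.4% of all genes) and 0 higher (beside 6.02% of all genes). In 11 members each AngII+QDG mouse lay below each AngII mouse (22.9%, beside 3.44% of all genes): Psma6, Psmb3, Psmb4, Psmb5, Psmc4, Psmd2, Psmd4, Psmd11, Psmd12, Psmd13 and Psme3. The reverse was true of 0 members, beside 1.56% of all genes. None reached a fold of 2, which with an unadjusted p under 0.05 was met by 0.817% of all genes. The same 5 AngII mice enter this comparison and the one with Control, so both move with the level in these mice.

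In AngII+QDG compared with Control, 0 members were called higher or lower by limma (beside 0.097% and 0.0323% of all genes), and 11 were lower and 0 higher at an unadjusted p under 0.05 (22.9% lower, beside 3.72% of all genes, and 10.7% of all genes higher). All AngII+QDG mice lay below all Control mice in 1 member, Psmd11 (2.08%, beside 0.857% of all genes), and above them in 0 (beside 2.78%), and 0 members met the fold threshold of the study (beside 0.728%). The median log2 fold change was -0.09 over the members and 0.06 over all genes, and 42 of 48 members (87.5%) lay below 0, beside 37.5% of all genes. After median scaling the members' median was -0.17. All 14 subunits of the 20S core lay below 0, between -0.16 and -0.01, with 1 of them, Psma1, at an unadjusted p under 0.05 (7.14%). Of the 17 subunits of the 19S regulator, 16 lay below 0 (94.1%) and 7 were lower at an unadjusted p under 0.05 (41.2%, beside 3.72% of all genes), none of them called.

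**Figure D2:**
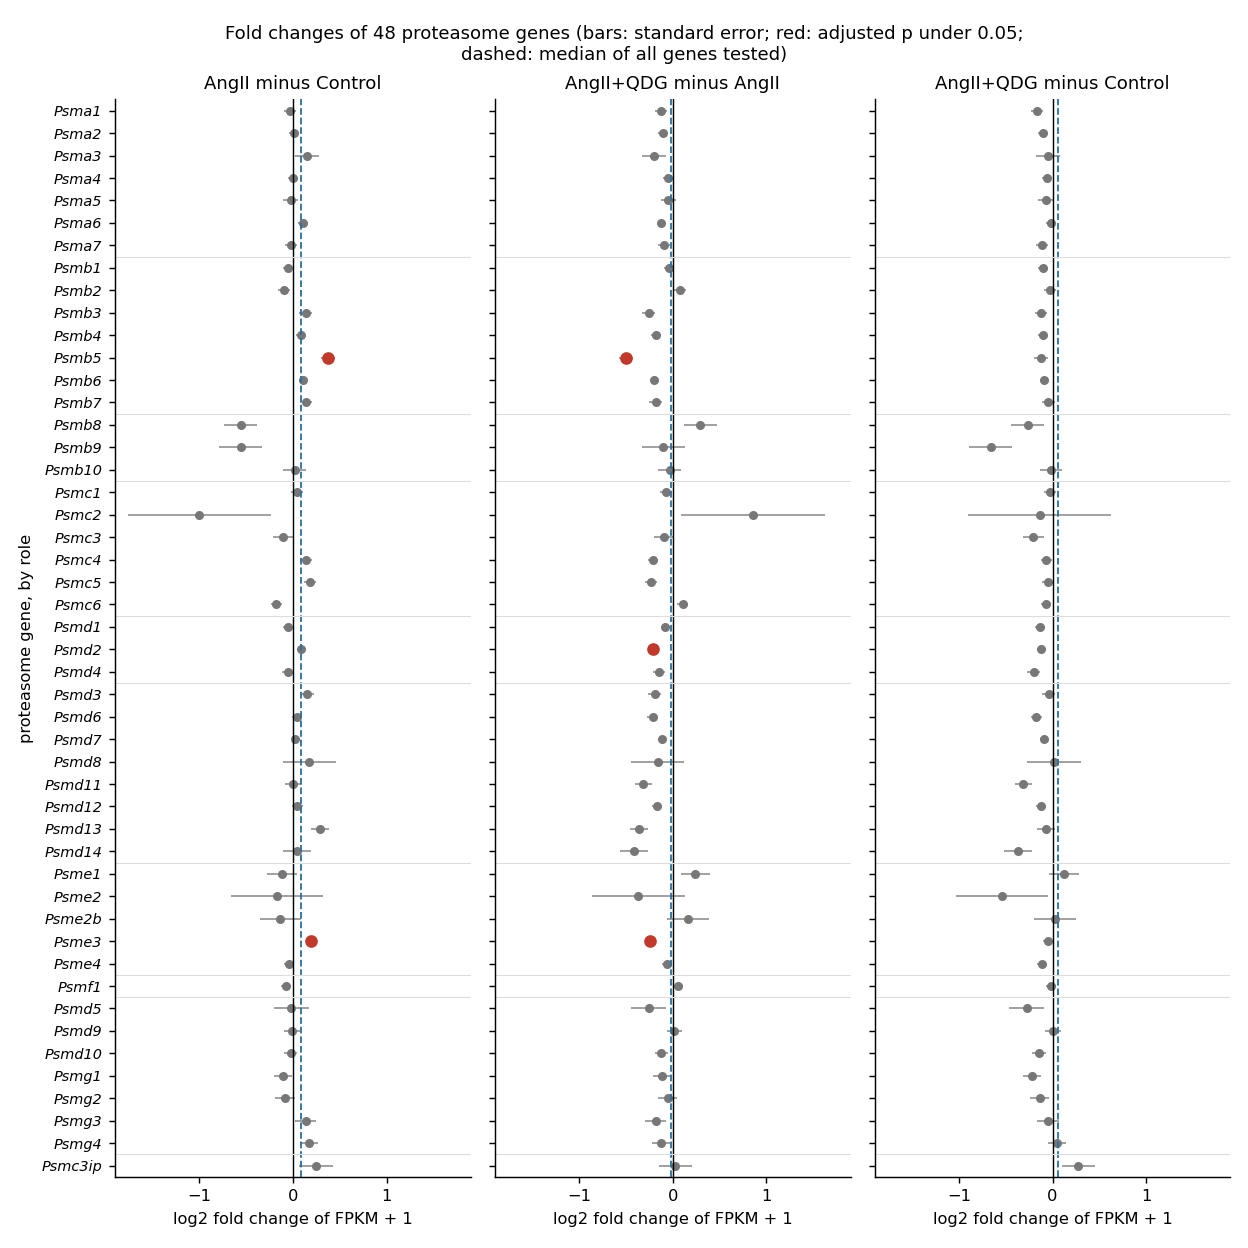
Log2 fold changes of FPKM + 1 (horizontal axes) for 48 proteasome genes in 3 comparisons, with standard errors as bars, red points for an adjusted p under 0.05 and a dashed line at the median of all genes tested. In AngII+QDG minus AngII most points lie left of the dashed line, and Psmb5, Psmd2 and Psme3 are red.

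Psmb5, the beta ring subunit with the chymotrypsin-like site and the target of bortezomib, was called in both comparisons with AngII. It had 115, 123, 136, 143 and 142 FPKM in the 5 Control mice, 174, 168, 169.7, 171 and 169 FPKM in the AngII mice, and 145, 113, 111, 114 and 121 FPKM in the AngII+QDG mice. All AngII mice were higher than all mice of both other groups, AngII+QDG mouse 1 was the highest of its group, and the Control and AngII+QDG ranges overlapped. Its group means were 132 ± 12.2, 170.4 ± 2.31 and 121 ± 14.0 FPKM (SD, n = 5). Psmb5 rose in AngII by 0.37 on the log2 scale (SE 0.08, adjusted p = 0.0155) and was lower in AngII+QDG than in AngII (-0.50, SE 0.08, adjusted p = 0.0132), while the difference of AngII+QDG from Control, -0.13, did not pass the test (adjusted p = 0.470). Only 1 annotated transcript of Psmb5 was listed, ENSMUST00000022803, with 3 exons at chr14:54614119-54618022 on the minus strand of GRCm38. Tested among the 28812 transcripts, it kept adjusted p-values of 0.0469 and 0.0310. After median scaling the rise in AngII was 0.28 with an adjusted p of 0.0698, the 1 of 28 other fits in which it was not called, and the fall under QDG was called in all 28.

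Psme3, which encodes PA28 gamma, an activator ring of the nucleus that opens the core without ubiquitin, followed the same order of groups at a smaller size. Its values were 32.1, 34.4, 32.2, 33.3 and 30.6 FPKM in Control, 37.7, 37.4, 36.8, 36.1 and 38.2 FPKM in AngII, and 31.1, 28.9, 31.9, 32.2 and 33.0 FPKM in AngII+QDG. Again each AngII mouse lay above all others, with Control and AngII+QDG overlapping. The rise in AngII was 0.19 on the log2 scale (standard error 0.05, adjusted p = 0.0318) and AngII+QDG differed from AngII by -0.24 (standard error 0.05, adjusted p = 0.0255). The call in AngII was lost when Control mouse 1, 3 or 5 or AngII mouse 1, 2 or 5 was left out (adjusted p 0.0601 to 0.0749), and the rise was 0.0935 after quantile normalization (adjusted p = 0.274), 0.0993 after median scaling (adjusted p = 0.270) and 0.17 after rescaling to the FPKM outside the mitochondrial genome (adjusted p = 0.0635). The call under QDG was lost without AngII mouse 2 or 5 or AngII+QDG mouse 2 or 3 (adjusted p 0.0518 to 0.0665). Of 28 other fits, 16 called the rise and 22 the fall.

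Psmd2, a scaffold subunit of the 19S base, was lower in AngII+QDG. It had 53.6, 50.5, 55.5, 53.4 and 56.1 FPKM in Control, 55.3, 59.5, 57.1, 57.3 and 56.3 FPKM in AngII and 51.9, 48.02, 48.4, 49.4 and 48.6 FPKM in AngII+QDG. All AngII+QDG mice lay below all AngII mice, and AngII+QDG mouse 1 was within the Control range. The log2 fold change was -0.21 against AngII (standard error 0.04, adjusted p = 0.0255) and -0.13 against Control (adjusted p = 0.198), and AngII differed from Control by 0.08 (adjusted p = 0.254). This call rests on the sum of transcripts. In AngII mouse 1 and AngII+QDG mouse 4, 29.7 and 29.2 FPKM were assigned to ENSMUST00000172207, a transcript annotated to nonsense-mediated decay that was at most 4.66 FPKM in the other 13 mice, and the main transcript ENSMUST00000007212 was at 25.1 and 19.7 FPKM, against 46.6 to 56.6 FPKM in the rest. With protein-coding transcripts only, the log2 fold change was -0.25 with an adjusted p of 0.696. Leaving out AngII mouse 2 or 5, or any of AngII+QDG mice 2 to 5, also ended the call (adjusted p 0.0538 to 0.0752), which was made in 16 of 28 other fits.

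**Figure D3:**
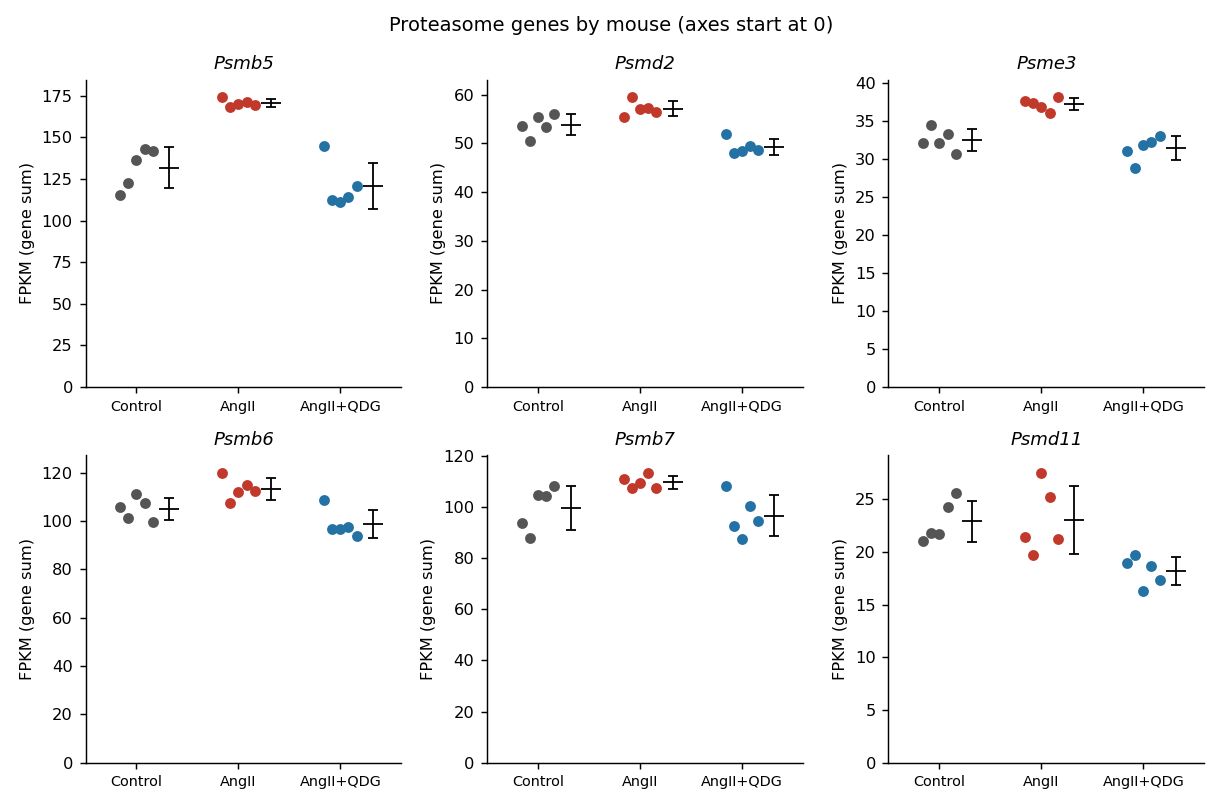
FPKM of Psmb5, Psmd2, Psme3, Psmb6, Psmb7 and Psmd11 in each kidney (points), with mean and SD of 5 mice beside each group (bars) and axes that start at 0. Psmb5 lay between 168 and 174 FPKM in AngII, above all other mice, and Psmd11 in AngII+QDG lay below both other groups.

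The promoters of the 3 called genes are shown because these genes passed the test, and the motifs searched were those of the antioxidant response element (TGACNNNGC, bound by NFE2L1 and NFE2L2, of which NFE2L1 is known to raise proteasome genes), the interferon-stimulated response element (GAAA, 2 bases of any kind and GAAA) and the CCAAT box (CCAAT), each on both strands. The sequences are the bases before the transcription start in RefSeq on GRCm38.p6, up to the first annotated exon base, in lower case with motif matches in capitals.
Psmb5 promoter, chr14:54618023-54618245, minus strand: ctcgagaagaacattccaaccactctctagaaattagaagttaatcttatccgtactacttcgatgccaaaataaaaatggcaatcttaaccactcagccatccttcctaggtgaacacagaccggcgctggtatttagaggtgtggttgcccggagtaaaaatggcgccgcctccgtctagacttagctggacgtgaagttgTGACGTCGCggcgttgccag
Psmd2 promoter, chr16:20651402-20651651, plus strand: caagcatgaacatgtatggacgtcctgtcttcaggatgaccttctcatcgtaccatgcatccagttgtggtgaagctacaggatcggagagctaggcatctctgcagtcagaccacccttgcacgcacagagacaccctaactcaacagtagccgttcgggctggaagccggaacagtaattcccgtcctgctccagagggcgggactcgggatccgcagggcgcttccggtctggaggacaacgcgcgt
Psme3 promoter, chr11:101315963-101316212, plus strand: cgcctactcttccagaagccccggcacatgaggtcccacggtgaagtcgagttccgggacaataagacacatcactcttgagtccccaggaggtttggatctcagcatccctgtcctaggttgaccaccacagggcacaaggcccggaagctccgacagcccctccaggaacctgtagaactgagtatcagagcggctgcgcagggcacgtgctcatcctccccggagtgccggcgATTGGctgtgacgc
The Psmb5 window held the antioxidant motif at 47 to 39 bases before the RefSeq start and the Psme3 window held a CCAAT box, in reverse as ATTGG, at 14 to 10 bases before it, while the Psmd2 window held none of the 3 motifs. RefSeq windows of 300 bases, from 250 before to 50 after a start, were present for 41 of the 48 genes. The antioxidant motif was found in 6 of their 44 windows (13.6%, beside 12.4% of 32851 windows of all genes): those of Psmb5, Psmb6, Psmc6, Psmd9, Psmd12 and Psme4. The interferon motif was in 5 windows (11.4%, beside 3.44%), those of Psmb3, Psmd4, Psmd9, Psme1 and Psmg4. The windows of the immunoproteasome genes Psmb8, Psmb9 and Psmb10 did not hold it. The CCAAT box was in 14 windows (31.8%, beside 37.4%).

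Within the 20S core, 1 of 7 beta subunits, Psmb5, was called higher in AngII and lower in AngII+QDG against AngII, and 0 of 7 alpha subunits were called in either comparison (beside 4.95% of all genes higher and 0.995% lower in AngII, and 0.526% and 1.29% in AngII+QDG against AngII). Summed FPKM of the 7 beta subunits was 712 ± 41.5 in Control, 777 ± 21.9 in AngII and 668 ± 38.0 in AngII+QDG, which is 109% and 93.7% of Control. For the 7 alpha subunits it was 421 ± 22.5, 425 ± 14.65 and 396 ± 19.1 FPKM, or 101% and 94.3% of Control. All 7 alpha subunits lay below 0 in AngII+QDG against AngII, from -0.20 for Psma3 (adjusted p = 0.463) to -0.05 for Psma5 (adjusted p = 0.822), and Psma6 had the smallest p of them (-0.12, adjusted p = 0.244).

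The other catalytic subunits had their highest mean in AngII, as Psmb5 did, without passing the test. Psmb6, with the caspase-like site, had 106, 101, 111, 107 and 99.6 FPKM in Control, 119.9, 107, 112, 115 and 112 FPKM in AngII and 109, 96.7, 96.8, 97.6 and 93.8 FPKM in AngII+QDG. Only AngII+QDG mouse 1 reached into the AngII range. The difference of AngII+QDG from AngII was -0.20 (standard error 0.05, adjusted p = 0.0588), and it was called without AngII+QDG mouse 1 (log2 fold change -0.23, adjusted p = 0.0270), with a filter of 5 FPKM (adjusted p = 0.0438) and after rescaling to the FPKM outside the mitochondrial genome (adjusted p = 0.0447). Psmb7, with the trypsin-like site, had 93.6, 87.7, 105, 104 and 108 FPKM in Control, 111, 107, 109, 113 and 107 FPKM in AngII and 108, 92.7, 87.4, 100.4 and 94.5 FPKM in AngII+QDG. Its AngII values were tightly grouped at the upper end of both other groups, with a log2 fold change of 0.14 against Control (adjusted p = 0.222) and -0.18 for AngII+QDG against AngII (adjusted p = 0.174). The structural subunits Psmb3 and Psmb4 were at -0.26 (adjusted p = 0.0709) and -0.18 (adjusted p = 0.0833) in AngII+QDG against AngII with no overlap of the groups. Psmb1 was at -0.04 and Psmb2 at 0.07, with overlap.

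None of the 3 immunoproteasome subunits was called (beside 4.95% of all genes higher and 0.995% lower in AngII), and the means of Psmb8 and Psmb9 were lower in AngII than in Control. Psmb8 had 5.64, 6.11, 4.90, 5.71 and 4.37 FPKM in Control, 4.42, 3.05, 3.40, 3.39 and 2.42 FPKM in AngII and 3.41, 5.97, 4.002, 5.999 and 2.74 FPKM in AngII+QDG. AngII mouse 1 just overlapped Control mouse 5, and the AngII+QDG mice were split, with mice 2 and 4 as high as Control and the others in the AngII range. The difference of AngII from Control was -0.56 (standard error 0.18, adjusted p = 0.0763).

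Psmb9 had 3.15, 2.41, 2.29, 3.35 and 1.95 FPKM in Control, 1.43, 1.79, 1.16, 1.31 and 1.55 FPKM in AngII and 1.17, 2.21, 0.473, 2.69 and 0.602 FPKM in AngII+QDG. All AngII mice were below all Control mice, and AngII+QDG again held its highest values in mice 2 and 4. AngII differed from Control by -0.56 (standard error 0.23, adjusted p = 0.160) and AngII+QDG from Control by -0.66 (adjusted p = 0.209), and the log2 scale with a pseudocount of 1 understates changes at such low FPKM. With a pseudocount of 0.1 these differences were -0.81 (adjusted p = 0.227) and -1.08 (adjusted p = 0.217). In a fit with only the 10 mice of the comparison, Psmb8 and Psmb9 were called lower in AngII (adjusted p = 0.0471 and 0.0440). Psmb10 had 5.18, 6.02, 5.58, 6.33 and 4.79 FPKM in Control, 6.33, 5.17, 4.84, 6.05 and 5.88 FPKM in AngII and 4.57, 5.21, 5.40, 7.78 and 4.87 FPKM in AngII+QDG. Its groups overlapped, with AngII+QDG mouse 4 the highest of the 15, and its log2 fold change in AngII was 0.02 (adjusted p = 0.957).

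As a share of its constitutive counterpart Psmb5, Psmb8 was 3.08% to 4.97% in Control, 1.43% to 2.54% in AngII and 2.26% to 5.30% in AngII+QDG. Psmb9 as a share of Psmb6 was 1.96% to 3.12%, 1.04% to 1.67% and 0.488% to 2.76%. Both shares were lower in each AngII mouse than in each Control mouse and widest in AngII+QDG. The rise of Psmb5 in AngII enters the first share. Psmb8 alone overlapped, at 4.42 FPKM in AngII mouse 1 and 4.37 FPKM in Control mouse 5, and was not called. For Psmb10 and Psmb7 the share was 4.44% to 6.86%, 4.42% to 5.71% and 4.23% to 7.75%, with overlap throughout.

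Leukocyte markers and genes of antigen presentation were read beside Psmb8 and Psmb9. The summed level of the 6 of 9 leukocyte markers with values was 120 to 199 FPKM in Control, 96.3 to 129 FPKM in AngII and 91.7 to 251 FPKM in AngII+QDG, while Cd3e and Itgam were among the 3 without a value and the macrophage receptor Csf1r was at 0.00303 to 2.20 FPKM over the 15 mice. Cd74, the invariant chain of class II presentation, made up most of that sum, and in AngII+QDG it was highest in mice 4 (218 FPKM) and 2 (139 FPKM), the mice with the highest Psmb8 and Psmb9, with 79.3 to 91.9 FPKM in the other mice. The macrophage marker C1qa was also highest in these mice, at 25.7 and 14.2 FPKM against 7.28 to 11.7 FPKM, as were Cd68 and Adgre1. Ptprc and Csf1r had another order, with Ptprc lowest in mouse 2 (1.20 FPKM) and Csf1r lowest in mouse 4 (0.00303 FPKM) and highest in mouse 5 (1.03 FPKM). The part of leukocyte content in the Psmb8 and Psmb9 values was not tested. Of 10 genes of class I presentation, 9 were tested, with 1 lower in AngII and 0 higher (beside 0.995% and 4.95% of all genes): B2m, the light chain of class I molecules, fell from 374 ± 71.0 to 209 ± 17.2 FPKM (SD, n = 5, log2 fold change -0.82, adjusted p = 0.00865). Tap1, the peptide transporter encoded beside Psmb9, was at -0.54 (adjusted p = 0.0842). In AngII+QDG against AngII, 0 of the 9 were called in either direction (beside 0.526% of all genes higher and 1.29% lower).

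**Figure D4:**
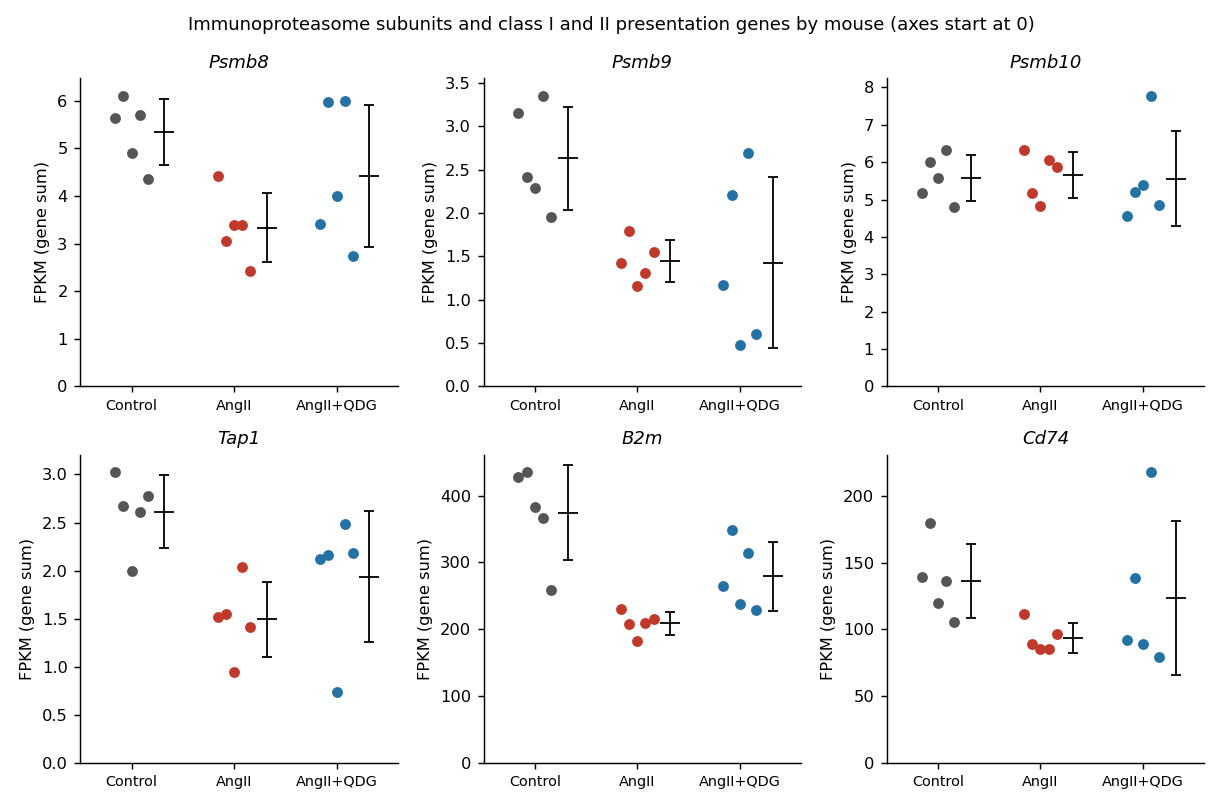
FPKM of Psmb8, Psmb9, Psmb10, Tap1, B2m and Cd74 in each kidney (points), with mean and SD of 5 mice (bars) and axes that start at 0. Psmb8, Psmb9 and Cd74 share their highest AngII+QDG values in the same mice, 2 and 4, and Psmb10 shows overlapping groups.

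The 17 subunits of the 19S regulator summed to 869 ± 19.7 FPKM in Control, 890 ± 25.2 FPKM in AngII and 803 ± 32.5 FPKM in AngII+QDG. Of the 17, 15 lay below 0 in AngII+QDG against AngII, 1 of them called (Psmd2) and 11 at an unadjusted p under 0.05 (88.2%, 5.88% and 64.7%, beside 53.7%, 1.29% and 10.4% of all genes). Psmc4 and Psmc5, ATPases of the base that unfold the substrate, were at -0.21 (adjusted p = 0.0710) and -0.23 (adjusted p = 0.0704) in AngII+QDG against AngII. The value of Psmc4 is that of the sum and not of its coding transcript ENSMUST00000032824, which averaged 39.8 ± 4.27 FPKM in AngII and 41.7 ± 3.98 FPKM in AngII+QDG (SD, n = 5). Psmc6, an ATPase of the same ring, stood apart in AngII, where all mice (41.9 to 44.5 FPKM) were below all Control mice (45.6 to 53.7 FPKM), at a log2 fold change of -0.18 (adjusted p = 0.0719). It was called lower after quantile normalization, median scaling and rescaling outside the mitochondrial genome. Psmc4, of the same ring, was at 0.14 in AngII (adjusted p = 0.140).

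The lid, which removes ubiquitin before the substrate enters, summed to 358 ± 14.4, 384 ± 12.7 and 332 ± 25.1 FPKM, and 7 of its 8 members were at an unadjusted p under 0.05 in AngII+QDG against AngII (87.5%, beside 10.4% of all genes), none of them called (beside 1.29%). Psmd11, a lid subunit that was the member with the smallest p in AngII+QDG against Control, had 21.05, 21.8, 21.7, 24.3 and 25.6 FPKM in Control, 21.4, 19.7, 27.5, 25.2 and 21.2 FPKM in AngII and 18.9, 19.7, 16.3, 18.7 and 17.4 FPKM in AngII+QDG. The AngII+QDG mice were below all others, with mouse 2 just under the lowest AngII mouse, but this separation was that of the sum. The retained-intron transcript ENSMUST00000147898 took 7.76 FPKM in Control mouse 4 and 4.36 FPKM in AngII mouse 1, and the leading transcript ENSMUST00000017572 was there at 15.8 and 14.69 FPKM, inside its AngII+QDG range of 14.65 to 18.4 FPKM. The log2 fold change was -0.31 against Control (standard error 0.09, adjusted p = 0.145) and -0.31 against AngII (adjusted p = 0.0913). With protein-coding transcripts alone it was -0.17 (adjusted p = 0.566) and -0.22 (adjusted p = 0.427), and with the leading transcript -0.16 (adjusted p = 0.674) and -0.20 (adjusted p = 0.561). Psmd14, the deubiquitinase of the lid, was at -0.41 against AngII (adjusted p = 0.182), with 13.7 FPKM in AngII+QDG mouse 3 and 19.01 to 27.8 FPKM in the others. Psmd13, at 0.29 in AngII (adjusted p = 0.0941), had its highest value, 59.1 FPKM, in AngII mouse 2, of which 32.1 FPKM were assigned to a retained-intron transcript. Its separation of AngII from both other groups is that of the sum, because the leading transcript ENSMUST00000026560 was lowest of the 15 in that mouse (20.7 FPKM) and was at 0.00257 in AngII (adjusted p = 0.996) and -0.0489 in AngII+QDG against AngII (adjusted p = 0.921).

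Among the activators, PA28 alpha and beta, encoded by Psme1 and Psme2 and induced by interferon gamma, were not called. Psme1 had 30.3, 29.5, 28.8, 21.9 and 20.6 FPKM in Control, 30.0, 18.6, 18.6, 26.8 and 27.3 FPKM in AngII and 23.5, 30.5, 25.4, 33.3 and 29.9 FPKM in AngII+QDG. The groups overlapped, and AngII+QDG mouse 4 was the highest of the 15. Psme2 had 6.14, 5.04, 4.18, 27.1 and 11.6 FPKM in Control, 10.1, 11.1, 6.09, 6.85 and 4.84 FPKM in AngII and 11.6, 2.51, 9.77, 1.95 and 7.64 FPKM in AngII+QDG. These values are uncertain, because 3 protein-coding transcripts of Psme2 are 99.3% to 99.4% identical over the aligned bases to the single transcript of Psme2b, listed at 9.13 to 26.8 FPKM, so reads of either gene could be assigned to the other. Of these transcripts, 2 were listed in the Control files alone and are outside the sums, and Psme2 and Psme2b summed were not called in any comparison. Psme4, which encodes PA200, an activator of the nucleus, was at -0.05 in AngII (adjusted p = 0.626), and the inhibitor Psmf1 at -0.07 (adjusted p = 0.478).

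None of the 7 assembly chaperones, which build the core (Psmg1 to Psmg4) and the base (Psmd5, Psmd9, Psmd10), was called in any comparison (beside 0.0323% to 4.95% of all genes in 1 direction), and their sums were 86.0 ± 4.10, 86.9 ± 6.74 and 80.3 ± 6.04 FPKM. Psmg1 had the smallest p of them in AngII+QDG against Control (log2 fold change -0.22, adjusted p = 0.319). Psmc3ip, at 0.649 to 3.02 FPKM, was near the filter and was not called.

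The 48 genes had 130 annotated transcripts in all files, of which 69 were protein-coding, 41 retained-intron, 14 processed and 6 of nonsense-mediated decay, and in 18 genes the most abundant transcript made up under 90% of the sum. Of 100 member transcripts tested, 1 was higher in AngII and 1 lower in AngII+QDG against AngII at an adjusted p under 0.05, Psmb5 in both cases (1.00% of the member transcripts, beside 0.691% and 0.0972% of all transcripts in either direction), and 0 in AngII+QDG against Control (beside 0.0243%). The fold threshold of the study was met by 2 transcripts in AngII, ENSMUST00000209034 of Psmd8 (higher) and ENSMUST00000161573 of Psme2 (lower), by 1 in AngII+QDG against AngII, of Psmc4, and by 2 against Control, the same ones of Psmc4 and Psme2 (beside 2.88%, 2.24% and 2.02% of all transcripts). The Psmc4 transcript was a retained-intron form, ENSMUST00000135482 at chr7:28041717-28050056 on the minus strand, and all AngII+QDG mice were below all others: 13.6 to 24.8 FPKM in Control, 10.43 to 19.5 FPKM in AngII and 4.36 to 9.26 FPKM in AngII+QDG. Its log2 fold change was -1.13 against AngII (standard error 0.22, adjusted p = 0.0629) and -1.23 against Control (adjusted p = 0.101). The gene sum of Psmc4 differed by -0.21 and -0.07, while its coding transcript ENSMUST00000032824 was at 0.06 against AngII (adjusted p = 0.903) and 0.27 against Control (adjusted p = 0.532), so the lower sum was not seen in the coding transcript.

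Psmd8, a lid subunit, had different leading transcripts in different mice. Its sum lay between 60.1 and 74.4 FPKM in 13 mice, but was 28.7 FPKM in Control mouse 3 and 26.7 FPKM in AngII+QDG mouse 4. ENSMUST00000186182 was at 3.65 FPKM in Control mouse 3 and 70.0 FPKM in Control mouse 4, and ENSMUST00000182328 was at 0.469 FPKM in Control mouse 3 and 63.2 FPKM in Control mouse 2. Psmc2, an ATPase with 1 listed transcript, was at 0.495 FPKM in AngII mouse 2 and at 40.6 to 51.3 FPKM in the other 14 mice, and its log2 fold change in AngII was -0.999 (standard error 0.77, adjusted p = 0.480). Both genes were named after their values had been seen, as were Psmc4 and its transcript, Psmc5, Psmc6, Psmd13, Psmd14 and the other members named outside the rule in the methods.

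**Figure D5:**
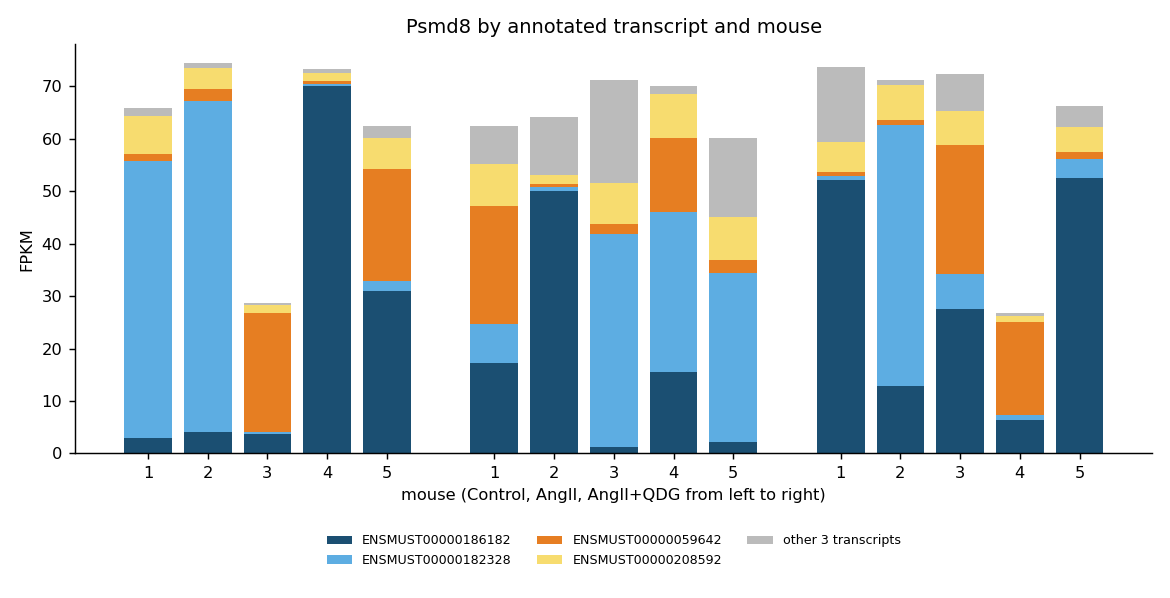
Stacked FPKM (vertical axis) of 7 annotated Psmd8 transcripts in each kidney, the 3 least abundant drawn together in grey. The sum was 60.1 to 74.4 FPKM in 13 mice although the leading transcript changed, and it was 28.7 FPKM in Control mouse 3 and 26.7 FPKM in AngII+QDG mouse 4.

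Around the proteasome, a list of 38 genes for ubiquitin supply, shuttling, assembly and regulation was read with the members. Of 37 with values, 3 rose in AngII and 0 fell (beside 4.95% and 0.995% of all genes): Zfand5, a proteasome activator (0.32, adjusted p = 0.0275), Ubqln1, a shuttle for ubiquitinated proteins (0.24, adjusted p = 0.0434), and Sem1, the smallest lid subunit, which the symbol rule does not reach (0.32, adjusted p = 0.0462). Ubqln1 was the 1 gene of the list that fell in AngII+QDG against AngII (log2 fold change -0.33, adjusted p = 0.0246), where 0 rose (beside 1.29% and 0.526% of all genes). The medians of the list were 0.10 and -0.07, beside 0.08 and -0.02 for all genes. Nfe2l1, the transcription factor that raises proteasome genes after their inhibition, was at 0.52 in AngII (adjusted p = 0.0636) and 0.47 in AngII+QDG against Control (adjusted p = 0.198), and Pomp, the maturation factor of the core, at 0.05 in AngII (adjusted p = 0.652).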

How the data were processed

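Total RNA of kidney was depleted of ribosomal RNA, and the methods of the study also describe an isolation of poly(A) mRNA before sequencing. The authors deposited 1 file per mouse with a value per Ensembl or assembled transcript. The submitters' processing notes name limma and the genome mm10, and the aligner, the assembler and the unit are not given in the sources used here. The deposited values were taken as FPKM, because FPKM times transcript length was a whole multiple of 1 constant (within 0.05) for 98.4% to 98.7% of the values under 200 reads in each mouse.

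Control files list 41477 transcripts and the other files 42310, and 40054 are shared, 28863 of them annotated in GENCODE release 21. FPKM of shared annotated transcripts were summed per gene, and genes reaching 1 FPKM in 5 or more mice, 12366 in all, entered a limma 3.58.1 fit (R 4.3.3) of log2(FPKM + 1) with a mean per group, a variance trend and 12 residual degrees of freedom over the 15 mice. P-values were adjusted by Benjamini-Hochberg over all genes, and fold changes on this scale understate those of low genes. Assembled transcripts, which carry no gene name, entered only a fit of 28812 single transcripts. The fit was tested on simulated data, and alternatives of scaling, filter, pseudocount, transcript choice and mice left out were run.

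The proteasome members, gene lists and motifs were chosen with earlier results of these data known. Values in every mouse were given for members with an adjusted p under 0.05, for Psmb5 to Psmb10 of the catalytic pairs, for Psme1 and Psme2, and for the member with the smallest p in each comparison.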

Additional observations from a re-analysis of the deposited data

Results flagged for a closer look

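In 177 groups of 5 values (48 members and the class sums in 3 groups), 1 mouse stood apart from the other 4 by Dixon's test at the 95% level in 16, where chance flags about 1 in 20 groups. AngII+QDG mouse 1 was the high value in 6 of them: Psmb5 (145 FPKM), Psmb6 (109), Psmc4 (58.4), Psma5 (34.8), Psmd9 (13.6) and the sum of all 48 members (2236 FPKM). AngII+QDG mouse 4 was high for Psmb10 (7.78 FPKM) and low for Psmd8 (26.7), and AngII+QDG mouse 3 was low for Psmg2 (11.7). In AngII, mouse 2 was low for Psmc2 (0.495 FPKM) and high for Psmd13 (59.1), and mouse 3 was high for Psmd12 (39.5) and Psmd14 (33.1) and low for Psmg1 (11.6). In Control, mouse 3 was low for Psmd8 (28.7 FPKM) and mouse 1 high for Psme2b (22.4).

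Another 5 member transcripts were listed in the 10 AngII and AngII+QDG files alone, outside the tests, with a mean of 10.2 to 33.5 implied reads. Their mean FPKM over the 10 mice was 0.477 for a transcript of Psma7, 0.562 for Psme2, 0.668 for Psme1, 0.511 for Psmb10 and 0.434 for Psmc1. Because the Control files do not list them, no level in Control can be set beside these values.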

How the results depend on the processing

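No paired analysis was run, because the study assigned its mice to the groups at random and each sample was taken as 1 mouse. Of the alternatives, robust shrinkage and the summing of Psme2 with Psme2b were chosen after seeing the data. The counts in this paragraph are given without the share of all genes called under the same setting. A change in the members called can thus not be told from a change in calls over all genes. For AngII against Control, the 2 members called higher became 1 under quantile normalization, rescaling outside the mitochondrial genome, no trend, the most abundant transcript only and a fit of the 10 mice, and 0 under median scaling. The 0 called lower became 1 under quantile normalization, median scaling and the rescaling (Psmc6), and 2 with the 10 mice (Psmb8, Psmb9). The median of members, 0.00, was -0.0812 under quantile normalization and -0.0871 under median scaling. For AngII+QDG against AngII, the 3 called lower became 1 under quantile normalization and with the 10 mice, 2 under median scaling, no trend and both choices of transcripts, and 4, with Psmb6, under the filter of 5 FPKM and the rescaling, and the median, -0.12, was -0.0775 under quantile normalization. For AngII+QDG against Control, the members' median was -0.17 under median scaling, their median less that of all genes -0.10 under quantile normalization, against -0.15, and 1 member, Psmb9, met the study's fold threshold with a pseudocount of 0.1.

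Leaving out 1 mouse gave 1 to 2 members higher in AngII and 1 to 6 lower in AngII+QDG against AngII. Higher in AngII was 1 member without Control 1, 3 or 5 or AngII 1, 2 or 5. Beside it were 2.2% to 3.6% of all genes, against 4.95% with all mice. The 6 lower, without AngII+QDG mouse 1, added Psmb6, Psmc4 and Psmd6, beside 1.62% of all genes. The count lower was 1 without AngII 2 or 5 or AngII+QDG 2 or 3. Beside it were 0.375% to 0.496% of all genes, against 1.29% with all mice, so calls over all genes moved too. Psmc4 was also called without Control 5.

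The changes of sign concerned differences that were not called in the comparison named. In AngII against Control, Psmb10 was at -0.0816 under quantile normalization, -0.0741 under median scaling and -0.0210 with protein-coding transcripts or the most abundant transcript only. Psmd2 was at -0.00639 under median scaling and -0.16 with either of those transcript choices, Psmd11 at 0.0407 and 0.0377, and Psme2 at 1.47 with protein-coding transcripts. In AngII+QDG against AngII, Psmb10 was at 0.0134 with every annotated transcript, and Psme2 at 0.00862 with the most abundant transcript and 0.0428 when summed with Psme2b. In AngII+QDG against Control, Psmb10 was at 0.12 with every annotated transcript and Psme2 at 1.36 with protein-coding transcripts. Over the fits without 1 mouse, the log2 fold change in AngII ranged from -0.0279 to 0.0625 for Psmb10, -0.0648 to 0.0509 for Psmd11 and -0.39 to 0.22 for Psme2. Against AngII, AngII+QDG ranged from -0.14 to 0.0204 for Psmb10 and -0.28 to 0.0547 for Psmb9, and against Control from -0.13 to 0.0370 for Psmb10.

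The fits took FPKM without weights for depth. The standard error of Psmb9, at 1.84 FPKM on average, was 0.23 on the log2 scale, against 0.08 for Psmb5.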
